A study of Homo sapiens with 6 samples.

Results

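The snoRNA host genes are the genes whose introns carry small nucleolar RNAs (snoRNAs). They were taken as every symbol made of SNHG and a number, which gave 28 genes, together with GAS5, ZFAS1, DANCR and TAF1D, so that 32 of the 60609 genes in the count tables were members. Their expression was measured by stranded poly(A) RNA-seq in K562 cells, an established human leukemia line with erythroid features. In all 6 libraries the cells carried a degradation tag on endogenous EP400, the scaffold and ATPase subunit of the TIP60 chromatin complex, and had received 500 nM of the degrader dTAGV-1 for 24 h. They differed in the EP400 expressed from the AAVS1 safe-harbor locus, which was wild type in the 3 WT libraries and lacked the SANT and HD domains that bind TRRAP in the 3 Delta-TRRAP libraries. Each line was 1 clone, so differences between clones and between genotypes cannot be told apart, and the p-values measure only the spread between libraries of the same clone. The study's methods call the 3 libraries of each line biological replicates, and nothing in the labels places them in separate cultures.

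A host gene is transcribed and spliced like other genes, and its snoRNAs are trimmed out of the excised introns. Box C/D snoRNAs guide 2′-O-methylation and box H/ACA snoRNAs guide pseudouridylation, mostly of ribosomal RNA, whereas the related scaRNAs act on spliceosomal RNAs in Cajal bodies. Most SNHG exons code for no known protein, and many of the spliced transcripts are removed by nonsense-mediated decay (NMD) in the cytoplasm, so the exon level counted in poly(A) RNA reflects both synthesis and decay. A subset of hosts begin transcription at a C followed by a run of pyrimidines, an arrangement shared with the ribosomal protein genes. TAF1D is the exception among the members in that it encodes a protein, a subunit of the TBP-containing selectivity factor of RNA polymerase I.

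The sequences behind the comparison were of 2 kinds, the small RNAs that the hosts carry and the start sites of the hosts. In the GENCODE 44 annotation of GRCh38, 147 small RNA genes lay inside 30 of the members on the same strand, of which 112 were box C/D, 31 box H/ACA and 4 scaRNAs. GENCODE 44 placed none inside GAS5, whereas the RefSeq gene table listed 11 within it. Shown here are 4 that were counted in these libraries, the 3 that fell in Delta-TRRAP and 1 from ZFAS1, the host with the lowest log2 fold change. They are written 5′ to 3′ as DNA from the hg38 genome, with the C box (TGATGA) and D box (CTGA) of box C/D snoRNAs and the ACA of box H/ACA snoRNAs in capitals, and in SNORD99 no exact C box was found.
SNORD6 in TAF1D, chr11:93731502-93731574, minus strand: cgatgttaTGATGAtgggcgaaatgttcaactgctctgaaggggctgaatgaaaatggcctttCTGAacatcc
SNORD99 in SNHG12, chr1:28578749-28578822, minus strand: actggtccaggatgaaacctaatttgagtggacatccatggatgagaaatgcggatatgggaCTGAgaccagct
SNORD12C in ZFAS1, chr20:49278940-49279028, plus strand: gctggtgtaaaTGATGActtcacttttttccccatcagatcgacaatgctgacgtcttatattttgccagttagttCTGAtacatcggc
SNORA73B in SNHG3, chr1:28508559-28508762, plus strand: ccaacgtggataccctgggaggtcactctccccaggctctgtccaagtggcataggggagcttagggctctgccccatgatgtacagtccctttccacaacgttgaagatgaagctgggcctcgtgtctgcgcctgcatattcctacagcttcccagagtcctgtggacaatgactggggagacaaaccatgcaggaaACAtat

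Start sites came from the RefSeq promoter table (GRCh38.p14), which held 28 of the 32 members. A run was counted where the first transcribed base was C and was followed by C or T only, for at least 5 bases in all. Such a run stood at the start of 8 of the 28 members (28.6%), against 4.07% of all 35116 promoters and 54.3% of 81 ribosomal protein promoters. The windows below show 20 bases before and 20 from the start site, with the run in capitals from its first base. The first 4 are hosts that fell and held a run, the next 2 hold a run in hosts that did not pass the test, and the last 3 are hosts that fell with a shorter run or none.
ZFAS1, chr20:49278622-49278661, plus strand: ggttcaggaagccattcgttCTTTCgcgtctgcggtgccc
SNHG5, chr6:85678714-85678753, minus strand: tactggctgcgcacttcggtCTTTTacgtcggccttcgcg
SNHG12, chr1:28581854-28581893, minus strand: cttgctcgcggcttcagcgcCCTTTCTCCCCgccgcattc
TAF1D, chr11:93741476-93741515, minus strand: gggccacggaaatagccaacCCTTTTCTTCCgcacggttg
SNHG4, chr5:139274081-139274120, plus strand: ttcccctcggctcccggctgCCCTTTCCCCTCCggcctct
SNHG19, chr16:2155339-2155378, minus strand: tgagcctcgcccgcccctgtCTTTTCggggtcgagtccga
SNHG17, chr20:38435309-38435348, minus strand: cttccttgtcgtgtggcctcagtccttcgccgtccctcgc
SNHG8, chr4:118278742-118278781, plus strand: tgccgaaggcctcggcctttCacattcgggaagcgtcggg
SNHG1, chr11:62855866-62855905, minus strand: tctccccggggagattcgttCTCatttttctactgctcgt

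Among tested members, 4 of 6 with a run fell and 7 of 18 without one fell. Over all tested genes with a RefSeq start, 39.6% of 599 with a run and 33.8% of 10699 without one fell. The difference between the members with and without a run was not tested. These are counts over the starts that RefSeq gives, and starts used in K562 were not examined. The palindrome CACGTG, the E-box bound by MYC and other factors, was found between 250 bases before and 50 after the start in 2 members (7.14%), SNHG7 and SNHG30, against 7.26% of all promoters. The strand does not matter for this motif, since it reads the same on both.

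The libraries held 35076835 to 42616061 counts in genes, and the host genes took between 0.223% and 0.252% of them in WT, against 0.187% to 0.211% in Delta-TRRAP. Normalized counts are counts scaled to a common effective library size, and EP400 itself had 4897, 4897 and 5377 in WT and 5533, 6833 and 4357 in Delta-TRRAP (log2 fold change 0.14 ± 0.11, adjusted p = 0.272), where reads from the tagged gene and the transgene cannot be told apart. All 12 erythroid K562 markers were counted, with summed normalized counts between 233075 and 235508 in WT, against 146231 to 150593 in Delta-TRRAP. Of the 12 lymphoid markers, tested because the labels give a lymphoblast cell type, 9 to 11 had a count in each library and MS4A1 was at 0 throughout, with sums between 16309 and 16884 in WT, against 4228 to 4747 in Delta-TRRAP, that were mostly PTPRC. The 10 fibroblast markers summed to between 35.5 and 58.0 in WT, against 929 to 991 in Delta-TRRAP, mostly COL1A2, while LUM and PDGFRA were at 0. Mitochondrial genes took between 3.18% and 3.71% of counts in WT, against 5.07% to 6.24% in Delta-TRRAP. The part of these differences in the results on host genes was not tested.

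Of the 32 members, 28 averaged at least 5 normalized counts and were tested with the other genes, 19114 in all. At an adjusted p of 0.01 or less, 12 fell in Delta-TRRAP, 3 rose and 13 did not pass. The lower share was 42.9% of members against 27.6% of all tested genes, and the higher share was 10.7% against 30.7%. When a fold change of at least 2 was also required, 1 member was lower (ZFAS1) and 2 were higher (SNHG31 and SNHG22), against 22.6% of all tested genes called in either direction. The 2 groups of libraries did not overlap for 16 of the 28 members, against 71.1% of all tested genes. In bulk RNA, fewer cells of a type and less RNA per cell cannot be told apart. The median log2 fold change of tested members was -0.22, against 0.03 for all tested genes. One member, SNHG22, passed the filter only through its Delta-TRRAP libraries, so its higher value was needed for it to be tested at all. Without it 2 members rose, SNHG20 and SNHG31, and 1 of these, SNHG31, by at least 2-fold.

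**Figure D1:**
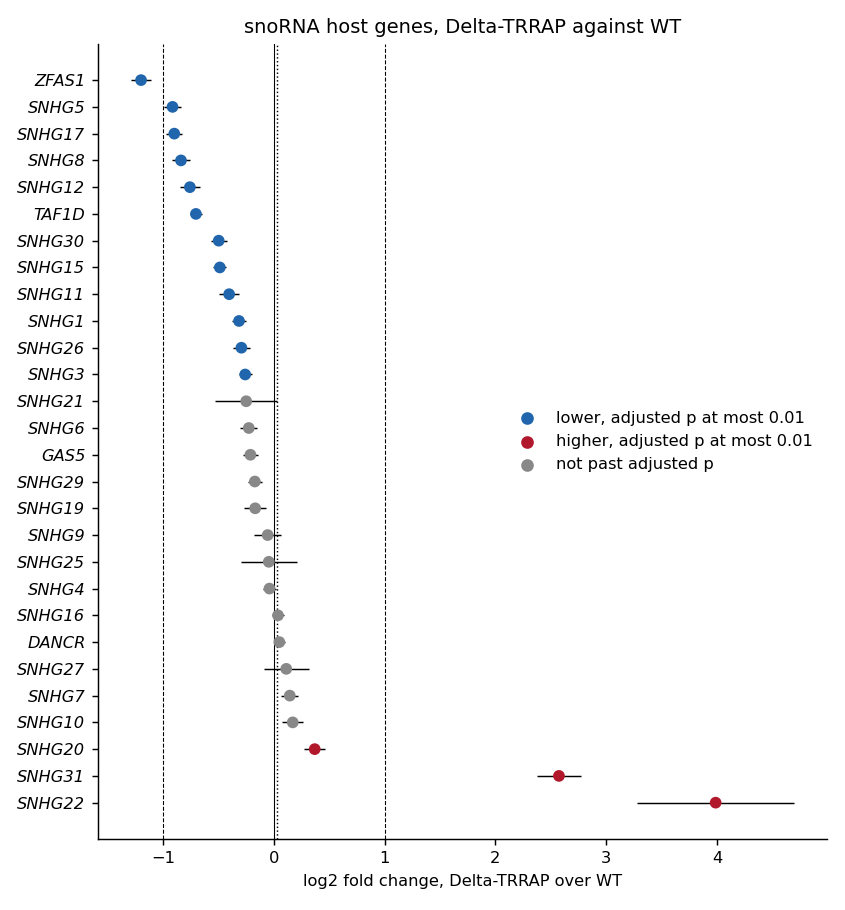
Log2 fold change of each of the 28 tested snoRNA host genes, Delta-TRRAP over WT, with bars of 1 standard error from the fit to 3 libraries per group. Dashed lines mark a 2-fold change, the dotted line the median of all tested genes (0.03), and colors the 12 members that fell, the 3 that rose and the 13 that did not pass; ZFAS1 is lowest at -1.20 and SNHG22 highest at 3.99.

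The share that fell differed with expression level, though this difference was not tested. Under 1000 normalized counts, 4 of 14 tested members fell (28.6%) and 3 rose (21.4%), with a median log2 fold change of -0.05. Those that rose include SNHG22, which passed the filter only through its Delta-TRRAP libraries. Among the 14 members that averaged at least 1000 normalized counts, 8 fell and none rose, with a median log2 fold change of -0.28, while 45.9% of the 6804 genes at that level fell and 22.1% rose, with a median of -0.14. Nearly all members are long noncoding RNA genes, and that class as a whole moved the other way, since of 3544 tested long noncoding RNA genes 8.78% fell and 40.8% rose (median 0.55). Of the 111 long noncoding RNA genes at 1000 or above, 40 fell and 42 rose (median -0.09).

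Scaling altered the split between directions. It was 12 lower and 3 higher with TMM scaling, 8 and 3 with upper quartile scaling, and 8 and 6 with scaling to library size alone, where the median of all genes itself moved from 0.03 to 0.13 and 0.17. ZFAS1, SNHG5, SNHG17, SNHG8, SNHG12, TAF1D, SNHG30 and SNHG15 fell under every one of the 14 alternatives that refitted the genes, and SNHG31 rose under all 14. SNHG22 rose under the 12 of them in which it was tested. Except with no filter, its high Delta-TRRAP values were needed for it to be tested there, so this adds no separate evidence. SNHG1, SNHG3, SNHG11, SNHG26 and SNHG20 each missed the threshold under at least 1 alternative.

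**Figure D2:**
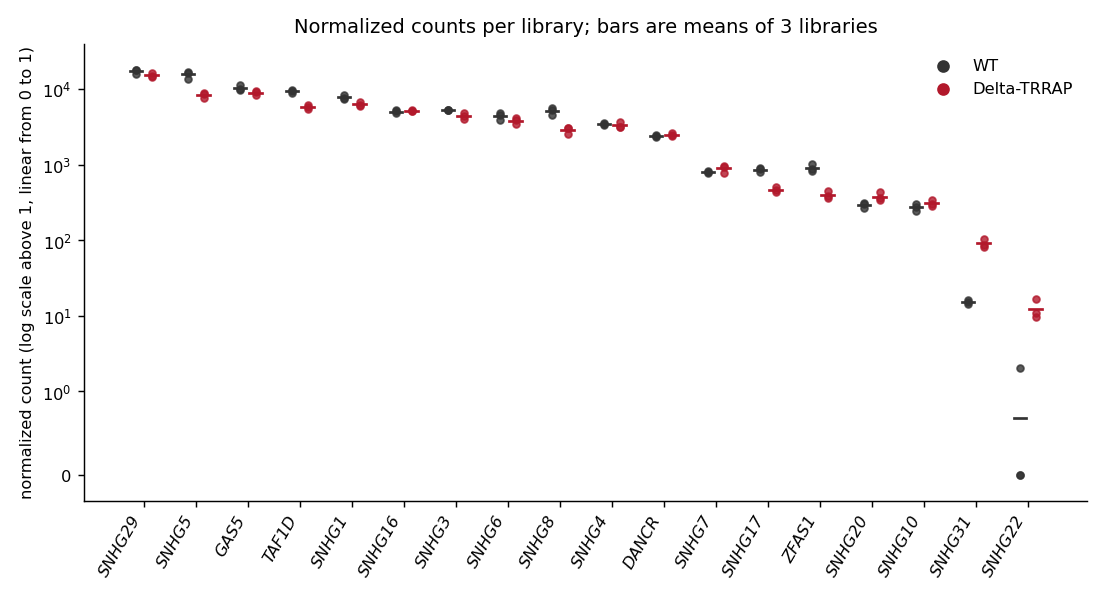
Normalized counts of 18 host genes in each of the 3 WT and 3 Delta-TRRAP libraries, as points, with bars at the mean; the axis is logarithmic above 1 and linear from 0 to 1, and genes are ordered by mean. SNHG5, TAF1D, SNHG8, SNHG17 and ZFAS1 are separated with Delta-TRRAP below, SNHG31 and SNHG22 with Delta-TRRAP above.

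Box C/D hosts held ZFAS1, which had the lowest log2 fold change of all members, and SNHG29, which had the highest mean count. By GENCODE 44, 5 of 9 tested hosts that carry box C/D snoRNAs alone fell and none rose, against 27.6% lower among all tested genes and 45.9% among those at 1000 normalized counts or more. The counts for the other kinds of host read against the same shares. The numbers are small, and differences between the kinds were not tested. ZFAS1 (chr20:49278178-49299600) starts opposite ZNFX1 and carries the SNORD12 family. Its normalized counts were 1021, 895 and 833 in WT and 389, 364 and 448 in Delta-TRRAP. Every Delta-TRRAP library was below every WT library, and the log2 fold change of -1.20 ± 0.09 (adjusted p = 1.08e-08) left it at 43.6% of WT. SNHG5 (chr6:85650491-85678932) carries SNORD50A and SNORD50B and was the member with the second highest mean. It had 17267, 16296 and 13829 in WT and 8665, 7606 and 8912 in Delta-TRRAP, a change of -0.91 ± 0.08 (adjusted p = 5.69e-08) with no overlap of the groups. SNHG5 alone made up 33.6% of the fall in the summed normalized counts of the members, which averaged 96801 in WT and 74740 in Delta-TRRAP.

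SNHG1 (chr11:62851978-62855953) is the classical intron-coded host whose exons are unconserved while its introns hold SNORD22 and SNORD25 to SNORD31. It was counted at 8521, 7457 and 7722 in WT and 6264, 5998 and 6822 in Delta-TRRAP. The groups were separated by a smaller step than in SNHG5, with a change of -0.31 ± 0.06 (adjusted p = 3.84e-04). SNHG30, host of SNORD7, fell by 0.50 on the log2 scale (adjusted p = 1.96e-05), and SNHG26, host of SNORD93, by 0.29 (adjusted p = 0.00453).

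Other abundant box C/D hosts did not pass the test. SNHG29 (chr17:16438767-16480249), host of SNORD49A, SNORD49B and SNORD65, had the highest mean of all members, with 18256, 18073 and 15931 in WT and 16449.8, 14834 and 15173 in Delta-TRRAP. Its groups overlapped, and its change was -0.17 ± 0.06 (adjusted p = 0.0238). GAS5 (chr1:173858559-173868882) accumulates in growth-arrested cells, where its translation-coupled decay slows. RefSeq places 10 box C/D snoRNAs and 1 box H/ACA snoRNA in GAS5. It was counted at 11458, 10126 and 9881 in WT and 9201, 8385 and 9628 in Delta-TRRAP. The groups did not overlap, but the change of -0.21 ± 0.07 gave an adjusted p of 0.0105, just outside the threshold of 0.01. SNHG6, host of SNORD87, had 4886, 4632 and 3976 in WT and 4158, 3514 and 3879.9 in Delta-TRRAP, overlapping, with -0.22 ± 0.07 (adjusted p = 0.0153). SNHG16, host of the SNORD1 family, had 4868, 5264 and 5176 in WT and 5149, 5180.4 and 5401 in Delta-TRRAP. Its values interleaved, with a change of 0.04 ± 0.05 (adjusted p = 0.513). SNHG19, host of SNORD60, had a change of -0.17 ± 0.10 (adjusted p = 0.144).

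Among hosts of box H/ACA snoRNAs alone, 5 of 11 (45.5%) fell and 1 rose, which is near the 45.9% lower among abundant genes. SNHG17 (chr20:38419638-38435409), host of the SNORA71 family, had 907, 815 and 881 in WT and 462, 433 and 505 in Delta-TRRAP. The groups were widely separated, with a change of -0.90 ± 0.07 (adjusted p = 2.50e-08). SNHG8 (chr4:118278703-118285316), host of SNORA24, had 5698, 5341 and 4575 in WT and 3048, 2592 and 3108 in Delta-TRRAP. It changed by -0.84 ± 0.08 (adjusted p = 2.14e-07), also with no overlap. SNHG3 (chr1:28505980-28510892) carries SNORA73A and SNORA73B, the U17 RNAs needed for early cleavage of the ribosomal RNA precursor. Its counts were 5385, 5379.6 and 5366 in WT and 4516, 4110.0 and 4876 in Delta-TRRAP, a change of -0.26 ± 0.06 (adjusted p = 0.0013). The WT libraries of SNHG3 lay within 20 counts of each other and above all Delta-TRRAP libraries. SNHG15, host of SNORA9, fell by 0.49 on the log2 scale (adjusted p = 3.39e-06), and SNHG11, host of SNORA60 and SNORA71E, by 0.40 (adjusted p = 0.00108).

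Of the H/ACA hosts that did not fall, SNHG4 (chr5:139274102-139284899), host of the U19 RNA SNORA74A, had 3601, 3355 and 3460.3 in WT and 3203, 3226 and 3720.2 in Delta-TRRAP. The groups overlapped, with a change of -0.04 ± 0.06 (adjusted p = 0.601). DANCR (chr4:52712325-52723623), host of SNORA26 and known for keeping progenitor cells undifferentiated, had 2427, 2513 and 2376 in WT and 2509, 2445 and 2628 in Delta-TRRAP. It too overlapped, with 0.05 ± 0.05 (adjusted p = 0.388). SNHG7, host of SNORA17A and SNORA17B, had 844, 781 and 809.9 in WT and 971, 776 and 947 in Delta-TRRAP, overlapping, with 0.15 ± 0.08 (adjusted p = 0.11). Under library-size scaling SNHG16, DANCR and SNHG7 passed as higher, at 0.17, 0.18 and 0.28. SNHG9, host of SNORA78, was at -0.05 ± 0.12 (adjusted p = 0.707).

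SNHG31 (chr2:214810181-214963575) was the H/ACA host that rose, from 16.2, 15.3 and 14.2 normalized counts in WT to 106, 86.8 and 81.4 in Delta-TRRAP. The lowest Delta-TRRAP library was several times the highest WT library, and the change was 2.57 ± 0.20 (adjusted p = 2.12e-08). The raw counts were 46 over the WT libraries and 274 over the Delta-TRRAP libraries, a ratio of 6.00 after scaling, with an exact 95% interval of 4.38 to 8.39 that covers counting error only.

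Hosts with both kinds of snoRNA were few, and 2 of 3 fell. TAF1D (chr11:93729948-93784391), with 8 small RNAs in its introns by RefSeq, had 9923, 9553 and 8979 in WT and 5768, 5585 and 6148 in Delta-TRRAP. The separation was complete, and the change was -0.70 ± 0.06 (adjusted p = 2.60e-08). SNHG12, host of SNORD99 and 3 box H/ACA snoRNAs, fell by 0.76 on the log2 scale (adjusted p = 2.16e-06), with normalized counts of 1295 ± 76.7 in WT and 768 ± 122 in Delta-TRRAP (SD, n = 3). SNHG25, host of SNORD104 and SNORA50C, was at -0.04 ± 0.25 (adjusted p = 0.886) with means of 26.2 and 25.5.

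None of the 4 hosts of a scaRNA fell. SNHG20 rose, and SNHG22 was higher but passed the filter only through the group where it is high. SNHG20 (chr17:77086716-77099902), host of SCARNA16, had 302, 269 and 313 in WT and 361, 348 and 435 in Delta-TRRAP. The groups were separated by a narrow gap, with a change of 0.37 ± 0.10 (adjusted p = 0.00317), and the call was lost without WT replicate 1 (adjusted p = 0.011), WT replicate 2 (0.0284) or Delta-TRRAP replicate 3 (0.0157). SNHG22 (chr18:49813965-49851059), host of SCARNA17, had 0, 0 and 2.03 in WT and 10.8, 9.75 and 16.9 in Delta-TRRAP. With 2 reads in WT and 37 in Delta-TRRAP the ratio was 18.6, with an exact 95% counting interval of 4.81 to 159.6, and the fitted change of 3.99 ± 0.71 (adjusted p = 1.37e-04) rests on few reads. SNHG10 (chr14:95521943-95534889), host of SCARNA13, had 301, 275 and 248 in WT and 303, 288 and 339.5 in Delta-TRRAP, overlapping, with 0.17 ± 0.09 (adjusted p = 0.119). SNHG21, host of SCARNA15, was at -0.25 ± 0.28 (adjusted p = 0.445).

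The remaining 5 members had low counts. SNHG27, host of a SNORA70 copy in GENCODE 44, had means of 50.4 in WT and 54.9 in Delta-TRRAP, with 0.11 ± 0.20 (adjusted p = 0.639). The 4 members below the filter were SNHG14, the host of the SNORD115 and SNORD116 clusters of the Prader-Willi region, with normalized counts of 2.94 to 6.09 over the 6 libraries, SNHG18 with 0 to 4.1, SNHG32 with 1 read in WT and 1 in Delta-TRRAP, and SNHG28 with 0 in every library. SNHG32 (chr6:31834608-31839766) hosts SNORD48 and SNORD52, and DDX39B, another snoRNA host of the same chromosome, was also at 0 in all 6 libraries. Reads with several positions and reads shared by overlapping genes were left out of the counts, so these values of SNHG32 and DDX39B cannot be read as low expression, and their cause was not tested.

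To compare levels between genes, normalized counts were divided by the length of the canonical transcript in kilobases. In WT this gave 39322 ± 2918 (SD, n = 3) for SNHG29, 13657 ± 1105 for GAS5, 12004 ± 1347 for SNHG5, 10246 ± 418 for SNHG16, 6799 ± 477 for SNHG1 and 5812 ± 291 for TAF1D. The level of SNHG29 stood apart, while GAS5 and SNHG5, and SNHG5 and SNHG16, lay within the sum of their standard deviations. In Delta-TRRAP the level per kilobase of SNHG5 was 6378, below the 10529 of SNHG16. The order depends on the length used, since dividing by all annotated exons put GAS5 (2127) above SNHG29 (1947).

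Position on the chromosome was examined because genes of a clone can shift together over a region. For each member the median log2 fold change of the 10 nearest tested genes on either side was taken. Of the 28 tested members, 20 lay below their neighbors and 8 above, and the median difference was -0.17. The same share over all tested genes was not taken, and the neighbors were not matched for level. Genes at 1000 normalized counts or more had a median of -0.14, against 0.03 for all tested genes, and 14 of the 28 members lay at that level. The part of level in this split was not tested. ZFAS1, SNHG17 and SNHG11 all lie on the long arm of chromosome 20, and their neighbors were themselves low, with medians of -0.34, -0.59 and -0.62. The change in ZFAS1 (-1.20) was thus larger than that of its surroundings, that in SNHG17 (-0.90) less markedly so, and that in SNHG11 (-0.40) smaller. SNHG17 and SNHG11 are adjacent and share 18 of their 20 neighbors. For SNHG5, SNHG8, SNHG12 and TAF1D the neighbor medians were -0.13, -0.14, -0.12 and -0.22, all closer to 0 than the members. For SNHG30, SNHG15 and SNHG1 they were positive, at 0.26, 0.03 and 0.10, while these members fell. SNHG31 and SNHG22 lay among neighbors with medians of 0.42 and 0.30.

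**Figure D3:**
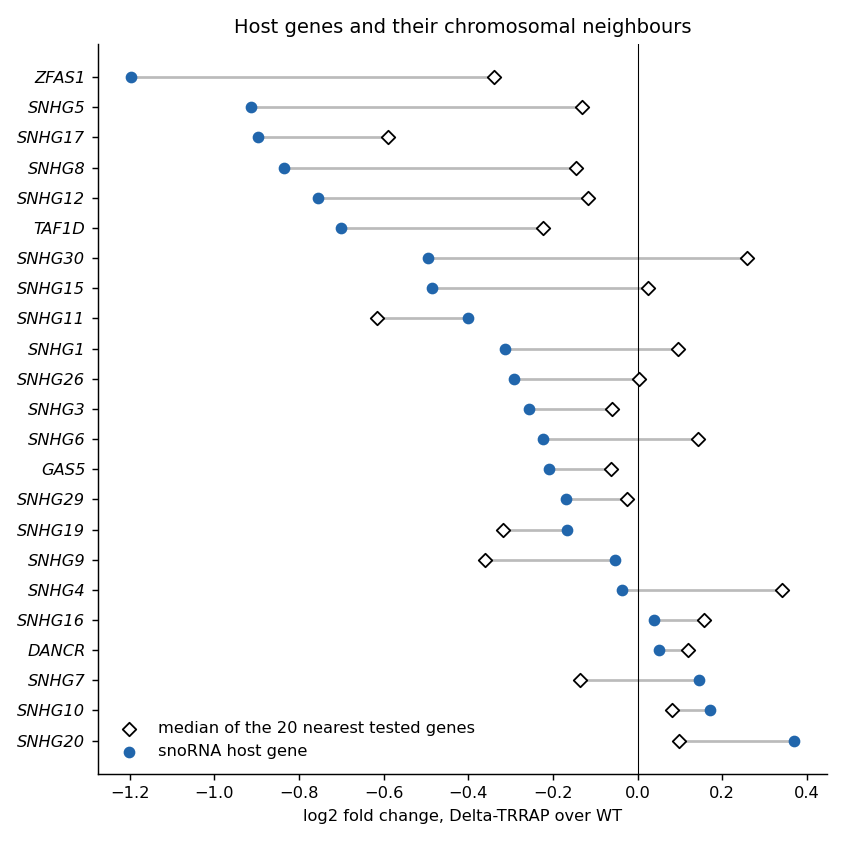
Log2 fold change, Delta-TRRAP over WT, of the 23 tested host genes that averaged at least 100 normalized counts (circles) and the median of the 20 nearest tested genes on the chromosome (diamonds), joined by a line. The host lies left of its neighbors by more than 0.6 for ZFAS1, SNHG5, SNHG8, SNHG12 and SNHG30, and right of them for SNHG11, SNHG19, SNHG9, SNHG7, SNHG10 and SNHG20.

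Among tested members with a RefSeq start, 7 began within 1000 bases of the RefSeq start of a tested gene on the other strand. Members without a RefSeq start were not searched, and the set was assembled after the values of the members were known. C11orf54, the partner of TAF1D, had a log2 fold change of 0.03 ± 0.06, adjusted p = 0.706. SLC3A2, the amino acid transporter chain that starts opposite SNHG1, had 0.11 ± 0.05, adjusted p = 0.0646. Neither partner passed the test while TAF1D and SNHG1 fell. BARD1, the partner of BRCA1 that starts opposite SNHG31, fell (-0.56 ± 0.06, adjusted p = 1.35e-06) while SNHG31 rose. ACAA2, a mitochondrial thiolase that starts opposite SNHG22, rose (0.85 ± 0.05, adjusted p = 1.64e-09), as did SNHG22. ZBTB37 opposite GAS5 had -0.27 ± 0.09, adjusted p = 0.0204, TRAF7 opposite SNHG19 had -0.22 ± 0.05, adjusted p = 9.36e-04, and GLRX5 opposite SNHG10 had 0.23 ± 0.06, adjusted p = 0.00176. ZNFX1, on the other strand from ZFAS1, was not among these 7 partners and fell by 0.28 on the log2 scale (adjusted p = 0.00162). The difference in change within these pairs was not tested.

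Mature snoRNAs lack a poly(A) tail, and poly(A) selection leaves out most of them. The small RNAs had few counts here, and the reason was not tested. SNHG14, itself with only 27 reads over all libraries, holds 84 of the 147 small RNAs annotated within members. Of the 147, 132 had no count in any library and 15 had at least 1, with totals of 966 in WT and 565 in Delta-TRRAP. Of the 7 that passed the filter, 3 fell (42.9%) and none rose, against 27.6% lower and 30.7% higher among all tested genes. With 7 tested the numbers are small, and the difference from those shares was not tested. Of the 3, SNORD6 and SNORD99 fell under every alternative in which they were tested. SNORD6, in an intron of TAF1D, was counted 48, 48 and 51 times in the WT libraries and 16, 21 and 14 times in the Delta-TRRAP libraries, a log2 fold change of -1.51 ± 0.22 (adjusted p = 1.53e-05). SNORD99, in SNHG12, had 52, 54 and 49 in WT and 18, 17 and 23 in Delta-TRRAP, with -1.40 ± 0.21 (adjusted p = 2.55e-05). For both RNAs every Delta-TRRAP count was below every WT count, and the host fell too, by 0.70 and 0.76. SNORA73B, in SNHG3, had 118, 112 and 130 in WT and 83, 70 and 97 in Delta-TRRAP, with -0.51 ± 0.15 (adjusted p = 0.00781). That call was lost under 8 alternatives, among them DESeq2 and leaving out WT replicate 1 or 3 or Delta-TRRAP replicate 1 or 2, with adjusted p of 0.0117 to 0.0406.

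SNORD12C, in ZFAS1, was counted 25 times in WT and 9 times in Delta-TRRAP, and its log2 fold change of -1.43 ± 0.58 did not pass (adjusted p = 0.0415). SNORA71B, in SNHG17, had 53 counts in either group, with 0.01 ± 0.32, while its host fell by 0.90. SNORD104 in SNHG25 (-0.60 ± 0.24, adjusted p = 0.0394) and SNORA26 in DANCR (-0.60 ± 0.32, adjusted p = 0.108) did not pass either. Whether these reads come from mature snoRNAs, from precursors or from retained introns of the host cannot be told from counts, and of the 147 small RNAs 88 touched an annotated exon of their host, SNORA26 among those tested. Reads shared by such a pair can be counted for one gene or for neither.

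**Figure D4:**
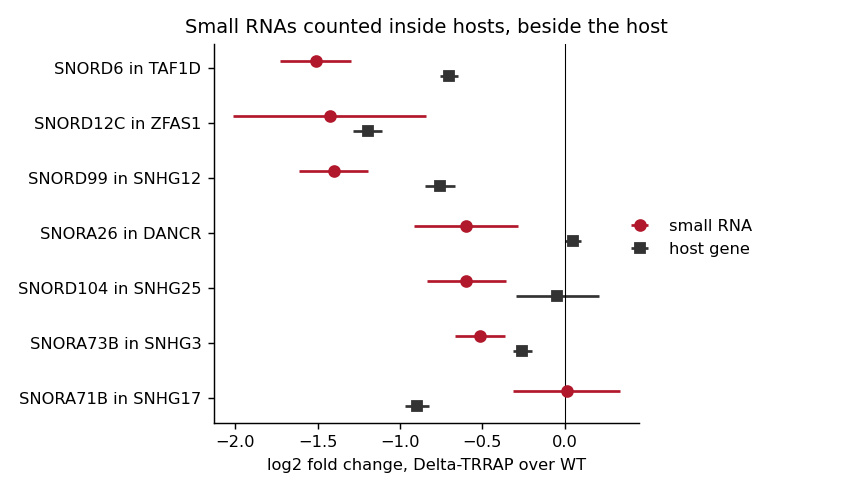
Log2 fold change, Delta-TRRAP over WT, of the 7 tested small RNAs (red circles) and of the host gene that contains each (black squares), with bars of 1 standard error. SNORD6 and SNORD99 lie left of their hosts, which also fell, while SNORA71B lies at 0.01 and its host SNHG17 at -0.90.

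Genes for the proteins that build snoRNPs were mostly lower in Delta-TRRAP, on a list that, like the others, was chosen with earlier results of these data known. Of 21 genes on that list 19 fell (90.5%, against 45.9% of all genes at 1000 normalized counts or more, where 19 of the 21 lay) and none rose, with a median log2 fold change of -0.44, and 16 fell and none rose under either upper quartile or library-size scaling. FBL, the methyltransferase of box C/D particles, had normalized counts of 13799 ± 387 in WT and 6425 ± 305 in Delta-TRRAP (SD, n = 3), a change of -1.10 ± 0.05 (adjusted p = 7.97e-11). RUVBL2, an ATPase that assembles snoRNPs and is also a subunit of TIP60, fell by 0.93 on the log2 scale (adjusted p = 4.44e-10). The smallest changes past the threshold were in SNU13, which binds the box C/D fold (-0.23 ± 0.05, adjusted p = 6.15e-04), and ZNHIT6, an assembly factor (-0.23 ± 0.05, adjusted p = 0.00119). SHQ1 and COIL did not pass, at -0.15 and -0.07.

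Protein-coding genes that host snoRNAs in their introns, most of them for ribosomal proteins and translation factors, gave 24 lower and 3 higher among 53 tested, with a median of -0.20. Of those 53 genes 50 averaged at least 1000 normalized counts, and the 45.3% that fell is close to the 45.9% of all genes at that level. That split was 16 lower and 7 higher with upper quartile scaling and 14 and 9 with library-size scaling. RPL37, of the large ribosomal subunit, was lowest (-0.91 ± 0.06, adjusted p = 7.12e-09). CHD8, a chromatin remodeler (0.31 ± 0.09, adjusted p = 0.00743), and SLC25A3, the mitochondrial phosphate carrier (0.29 ± 0.06, adjusted p = 3.19e-04), were highest. NOP56, NOP58 and DKC1 stand on this list and on that of snoRNP proteins.

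NMD factors were examined because many host transcripts are substrates of that pathway, and 8 of 17 fell and 2 rose, with a median of -0.17. All 17 averaged at least 1000 normalized counts, where 45.9% of all genes fell with a median of -0.14, so the 47.1% of NMD factors that fell is close to that background. The split was 5 and 3 with library-size scaling. PNRC2, which links UPF1 to decapping, fell by 0.81 on the log2 scale (adjusted p = 8.04e-10) and MAGOH, of the exon junction complex, by 0.60 (adjusted p = 8.00e-07). The 5′ to 3′ exonuclease XRN1 rose by 0.54 (adjusted p = 1.25e-04) and the NMD endonuclease SMG6 by 0.29 (adjusted p = 0.002). With clone and genotype confounded and steady-state RNA as the readout, changes in host synthesis and in host decay cannot be told apart.

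**Figure D5:**
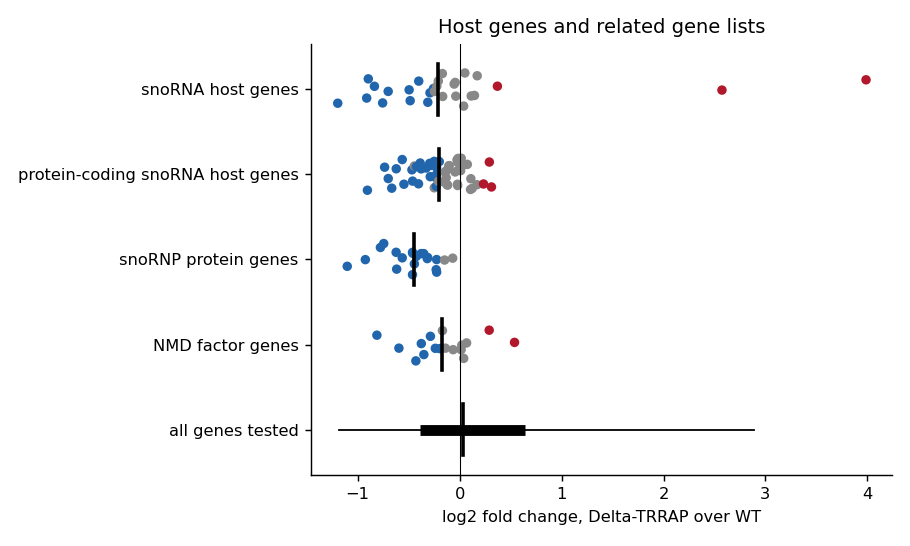
Log2 fold change, Delta-TRRAP over WT, of every tested gene in 4 lists, with a vertical bar at each median and, for all genes tested, a thin line from the 5th to the 95th percentile and a thick one between quartiles. Blue points fell, red points rose and gray points did not pass; medians are -0.22 for snoRNA host genes, -0.20 for protein-coding hosts, -0.44 for snoRNP proteins, -0.17 for NMD factors and 0.03 for all genes.

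In GENCODE 44, 27 of the 32 members shared exon sequence on the same strand with another gene, 13 of them only with named snoRNAs, scaRNAs or microRNAs. Reads over such shared parts were discarded as ambiguous wherever the models used for counting hold the same overlap. The shared part was largest in SNHG28 (90.8% of its exon length, with VSIG8), SNHG21 (72.9%), SNHG25 (39.7%), SNHG32 (29.1%) and SNHG9 (20.7%, with SNORA78). It was 15.4% in SNHG1, with its own snoRNAs, 14.01% in SNHG4, with MATR3, 13.7% in SNHG5, with a pseudogene and SNORD50B, 10.96% in SNHG3, with RCC1 and SNORA73A, and 10.7% in SNHG20, with SEC14L1, SCARNA16 and a microRNA. No shared exon was found for GAS5, SNHG26, SNHG27, SNHG31 and SNHG18. The release used for counting may differ in these models.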

How the data were processed

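The authors deposited raw counts of reads per gene for each library, made per the methods from uniquely mapped reads that STAR placed on hg38 and HTSeq 2.0.2 assigned to genes in reverse-stranded union mode. Reads with several positions were discarded, which lowers genes with near-identical copies. A table of normalized signal, which also had 3 columns of another condition, and a table of the authors' DESeq2 fold changes and p-values were not used. Groups and replicate numbers came from the sample titles.

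Counts were tested with edgeR 4.0.16 (R 4.3.3): genes averaging at least 5 normalized counts, TMM scaling, a quasi-likelihood F test on group alone and Benjamini-Hochberg adjustment over 19114 genes. A change was counted at an adjusted p of 0.01 or less, and the study's fold threshold of 2 was added where stated. Counts carry the SD over 3 libraries and log2 fold changes the standard error of the fit. Depth was 35076835 to 42616061 counts per library. The members and the lists were chosen with earlier results of these data known. Values per library are given for GAS5, ZFAS1, DANCR, TAF1D, members past the fold threshold, the 10 most abundant, and the 3 lowest and 3 highest log2 fold changes at a mean of at least 100. Of each other list, the 2 lowest and 2 highest genes past the threshold are named, except 1 that is not reported here. Positions and small RNAs came from GENCODE 44 (19041 of 19114 tested genes matched by ID), start sites from RefSeq. Scripts were tested on simulated data. Alternatives were DESeq2 1.42.0, limma-voom (limma 3.58.1), 3 other scalings, other filters and fold thresholds, a replicate block and leaving out each library.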

Additional observations from a re-analysis of the deposited data

How the results depend on the processing

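Of the 28 tested host genes, 12 kept their direction and their side of the threshold under every alternative in which they were tested, which was 14 for 10 of them, 13 for SNHG21 and 12 for SNHG22. SNHG22 is counted among them although it passed the filter only through its Delta-TRRAP libraries. The number past the threshold was 15 in the main analysis and 13 to 17 when a library was left out, 17 with DESeq2, 16 with limma-voom, 11 with upper quartile scaling, 12 at a minimum mean of 50 and 18 with no filter. The number called at a 2-fold change was 3, and 2 to 4 without a library: it was 4 without WT replicate 3 and 2 without Delta-TRRAP replicate 3, where SNHG22 was no longer tested. At a 1.5-fold change 8 hosts (6 lower, 2 higher) and 6750 genes were called, and at a minimum mean of 50, which leaves fewer genes tested, 1964 genes. At that minimum no hosted small RNA passed, since SNORD6 and SNORD99 were no longer tested and SNORA73B did not pass. The count of small RNAs was 2 in place of 3 with DESeq2, upper quartile and library-size scaling, and 2 to 3 without a library. The median of the hosts was -0.115 with upper quartile and -0.0832 with library-size scaling, and -0.256 to -0.154 without a library. GAS5 passed with DESeq2 (adjusted p = 0.00443), limma-voom (0.00979), RLE scaling (0.00824) and no filter (6.55e-05), and without WT replicate 3 or Delta-TRRAP replicate 3. SNHG6 passed as lower with DESeq2, with no filter and without WT replicate 3 or Delta-TRRAP replicate 1. SNHG29 did so with no filter and without WT replicate 3, and SNHG19 without Delta-TRRAP replicate 3. SNHG7 passed as higher without Delta-TRRAP replicate 2 as well as with library-size scaling. SNHG26 was lost without WT replicate 1 or 3 or Delta-TRRAP replicate 1 or 2 (adjusted p of 0.0106 to 0.0273).

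Members that changed sign all lay near 0 in the main analysis and did not pass. With upper quartile scaling SNHG9, host of SNORA78, was at 0.0471, SNHG25 at 0.057 and SNHG4 at 0.0641, with library-size scaling they were at 0.079, 0.0891 and 0.0954, and at a minimum mean of 50 SNHG9, host of SNORA78, was at 0.0188 and SNHG4 at 0.0353. Without a library, SNHG16 ranged from -0.00097 to 0.0534, SNHG27 from -0.0761 to 0.233, SNHG25 from -0.178 to 0.151, SNHG9 from -0.167 to 0.0018 and SNHG4 from -0.113 to 0.00076.

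Same-numbered libraries of the 2 groups had correlations of deviations of -0.0095, -0.029 and -0.019, so the numbers do not pair them. With a replicate block 15 hosts passed and 4184 genes were called, against 4322. Low counts per library limit what can be said of SNHG22, SNHG21, SNHG25 and the small RNAs, and the reason for these low counts was not tested.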
